A study of Mus musculus with 84 samples.

Results

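The 33 genes described here mark or regulate the cells of blood vessels. They are 11 genes of endothelial adhesion, junctions and vessel wall, 7 receptors and co-receptors, 3 scavenger receptors, 2 transcription factors, 4 ligands and 6 pericyte genes. They were chosen by name, with earlier results of these data known, and were found in the gene name column of the array files, 31 under their own symbol and Lyve1 and Esam through their RefSeq accession, since the files list them under older symbols. The 33 genes, of 28599 gene names on the array, are covered by 58 of 41174 probes. Each is described by its brightest probe.

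RNA of liver and inguinal adipose tissue (IAT) came from male db/db mice of the strain BKS Cg-m+/+ Leprdb/J. They were 8 weeks of age when obtained, before acclimatisation and treatment. All mice, treated and control, were db/db and lacked a working leptin receptor. In the paper the RSG and control groups were alike in obesity and diabetes before treatment, and RSG lowered blood glucose over the 18 days. Each tissue had 6 groups of 6 mice, treated per os for 18 days with rosiglitazone (RSG), a PPARγ agonist, or with a second compound that the labels name only as S, at 28, 84 or 280 µmol/kg. RNA of each mouse was hybridised on 2 Agilent arrays with exchanged dyes against pooled RNA of db/db control mice, made from 6 animals. Values below are log2 ratios of treated mouse over pool, averaged over both arrays: a value of 0 is the level of the pool. The pool is 1 control sample for each tissue, shared by its 6 groups, and the spread between untreated mice is in no test. Because RNA came from whole tissue, fewer cells of a type and less RNA per cell cannot be told apart. In the treated channel the median array had 70.2% of its probes well above background in IAT and 56.7% in liver. All 33 genes were bright enough to be tested in IAT and 32 in liver, where Angpt1 was not. The defining markers Pecam1, Cdh5, Kdr, Rgs5 and Pdgfrb were well above background in both channels on all 72 arrays of treated mice in either tissue. Cspg4 was so on all 72 arrays in IAT but on 48 of 72 in liver.

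Endothelial cells line every vessel and are held together by junction proteins such as VE-cadherin (Cdh5) and claudin-5. They respond to VEGF through its receptors and to angiopoietins through Tek. Pericytes wrap the capillaries from outside, depend on PDGF signals through Pdgfrb and on Notch signals through Notch3, and set the tone of the vessel in part through potassium channels. In adipose tissue the capillary bed expands with the tissue, while the sinusoidal endothelium of the liver is perforated and rich in scavenger receptors.

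The promoters of selected genes are shown first, from 250 bases before to 50 bases after the start of the gene, as given by RefSeq on GRCm38.p6. Rgs5, Kcnj8 and Abcc9 are the pericyte genes among them, and Kdr and Vegfb are shown because they were above the pool where most of the list was below it. An entry was found for 19 of the 33 genes. Capitals mark matches, on either strand, to CAGGAA, a core recognised by ETS factors, to TGGGAA, a core recognised by the Notch partner RBPJ, or to AGGTCA, the half-site of nuclear receptors; in the promoter of Abcc9 the second capitalised stretch is CAGGAA read on the other strand. Rgs5 is at chr1:169655251-169655550 on the plus strand, Kcnj8 at chr6:142571565-142571864, Abcc9 at chr6:142702225-142702524, Kdr at chr5:75978406-75978705 and Vegfb at chr19:6987602-6987901, all 4 on the minus strand.
Rgs5: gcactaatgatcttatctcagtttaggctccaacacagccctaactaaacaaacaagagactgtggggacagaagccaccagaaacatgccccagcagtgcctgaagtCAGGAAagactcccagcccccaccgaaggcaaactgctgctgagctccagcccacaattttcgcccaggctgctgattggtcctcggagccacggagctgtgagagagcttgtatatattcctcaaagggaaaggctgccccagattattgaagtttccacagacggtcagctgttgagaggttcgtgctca
Kcnj8: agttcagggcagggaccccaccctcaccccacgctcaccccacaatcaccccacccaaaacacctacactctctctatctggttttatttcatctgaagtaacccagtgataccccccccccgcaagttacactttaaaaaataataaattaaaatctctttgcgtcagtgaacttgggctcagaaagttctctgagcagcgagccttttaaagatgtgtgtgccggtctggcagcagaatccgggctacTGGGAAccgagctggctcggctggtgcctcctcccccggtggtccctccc
Abcc9: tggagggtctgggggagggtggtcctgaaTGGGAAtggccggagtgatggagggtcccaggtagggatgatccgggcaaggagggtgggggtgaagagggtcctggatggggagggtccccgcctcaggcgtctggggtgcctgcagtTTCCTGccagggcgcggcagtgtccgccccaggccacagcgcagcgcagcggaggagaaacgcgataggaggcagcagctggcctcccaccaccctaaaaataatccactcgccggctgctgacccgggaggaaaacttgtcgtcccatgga
Kdr: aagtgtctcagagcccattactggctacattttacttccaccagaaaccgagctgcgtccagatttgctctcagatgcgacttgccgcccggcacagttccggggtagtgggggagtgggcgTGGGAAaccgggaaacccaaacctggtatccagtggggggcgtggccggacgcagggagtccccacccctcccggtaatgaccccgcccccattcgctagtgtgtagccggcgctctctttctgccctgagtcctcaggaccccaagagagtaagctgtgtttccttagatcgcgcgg
Vegfb: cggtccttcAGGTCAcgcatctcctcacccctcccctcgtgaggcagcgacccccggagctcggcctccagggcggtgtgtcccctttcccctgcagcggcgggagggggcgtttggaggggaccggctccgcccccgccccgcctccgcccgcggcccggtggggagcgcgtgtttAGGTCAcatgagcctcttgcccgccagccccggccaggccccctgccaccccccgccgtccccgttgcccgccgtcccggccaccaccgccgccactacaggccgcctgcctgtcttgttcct
CAGGAA occurred in the promoters of 12 of the 19 genes and in 30.6% of 32851 mouse promoters of the same length. TGGGAA occurred in 6 of 19 against 25.6% and AGGTCA in 5 of 19 against 16.3%. A direct repeat of AGGTCA with 1 base between the copies, the arrangement bound by PPAR with its partner RXR, was in none of the 19 and in 0.0396% of all promoters. These matches describe the letters only. Kcnj8 and Abcc9, which encode the pore and the sulfonylurea receptor subunit of a vascular ATP-sensitive potassium channel, are neighbouring genes on chromosome 6. In the coordinates of the array files (mm8) the probes lie at chr1:171529565-171529624 for Rgs5, chr6:142522706-142522765 for Kcnj8, chr6:142546439-142546498 for Abcc9 and chr5:76214981-76215040 for Kdr.

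In IAT the vessel genes were mostly below the pool at the highest dose of either compound, and the pericyte genes Rgs5 and Kcnj8 were lowest. At 280 µmol/kg RSG, 19 of 33 genes were lower and 3 higher (limma, adjusted p under 0.05), while 66.4% of all 31429 probes tested were called, 29.8% lower and 36.6% higher. The median of the 33 genes was -0.34 and that of all probes 0.03. At 280 µmol/kg S, 24 were lower and 3 higher, while 74.2% of all probes were called, 32.1% lower and 42.1% higher, with medians of -0.40 and 0.06. At 84 µmol/kg, RSG had 18 lower and 6 higher (27.2% and 38.0% of all probes, 65.2% together) and S 10 lower and 3 higher (22.3% and 32.8%, 55.1% together). At 28 µmol/kg, RSG had 7 lower and 6 higher (19.2% and 27.2% of all probes, 46.4% together) and S 2 lower and 6 higher (19.0% and 28.1%, 47.1% together), with medians of 0.00 and 0.01. Of the 33 genes, 57.6% were lower at 280 µmol/kg RSG and 72.7% at 280 µmol/kg S, both above the share of all probes, whereas at 28 µmol/kg S 6.06% were lower.

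**Figure D1:**
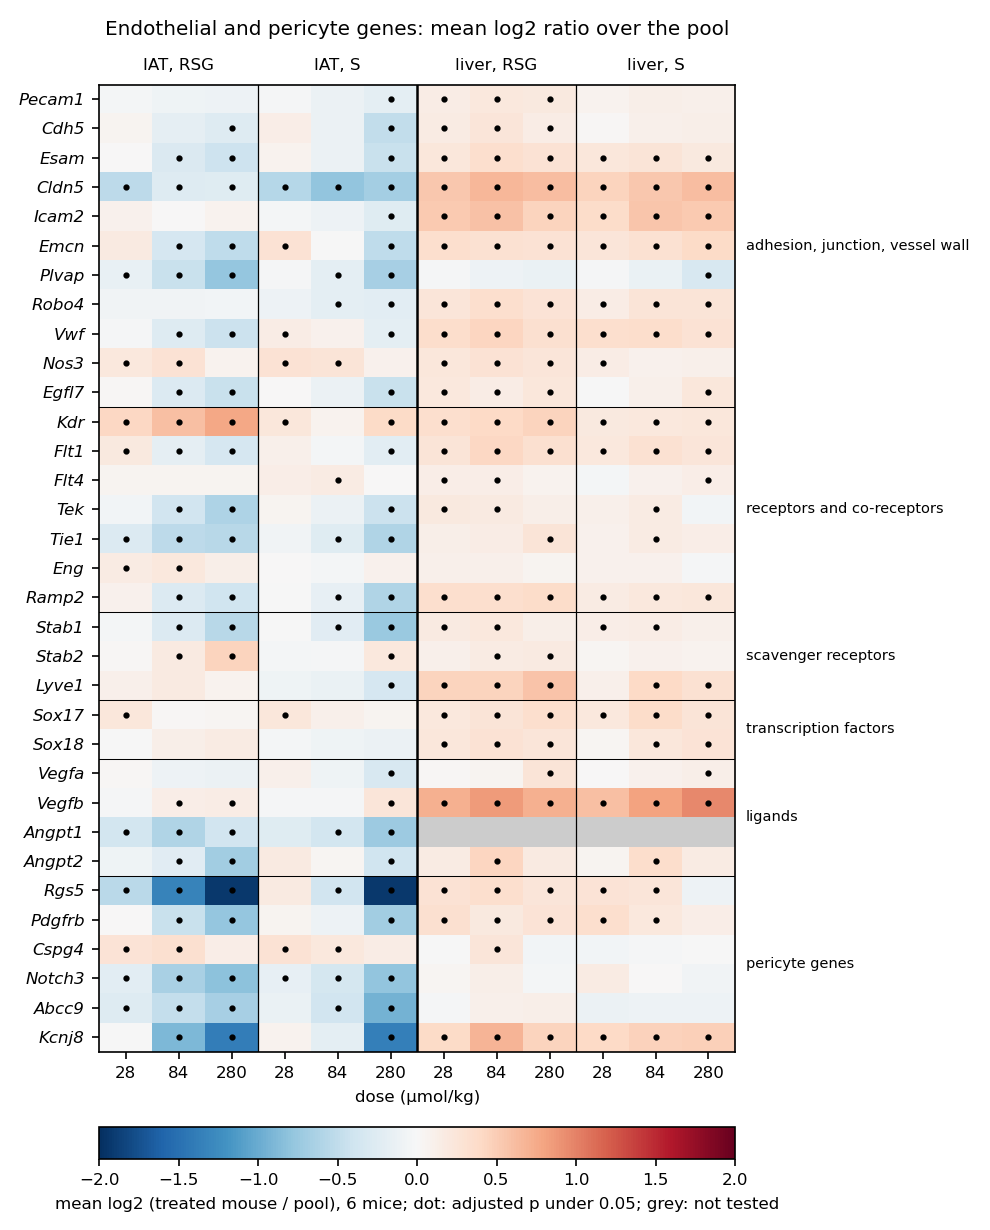
Mean log2 ratio of treated mouse over pool for the 33 genes (lines, grouped by role) in the 12 groups of 6 mice (columns: tissue, compound and dose in µmol/kg). Blue is below and red above the pool, a dot marks an adjusted p under 0.05, and grey marks a gene not tested. The IAT columns turn blue towards 280 µmol/kg, most of all for Rgs5 and Kcnj8, while the liver columns are mostly red.

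Rgs5, a regulator of G-protein signalling that is one of the most selective pericyte markers, showed the lowest values. With RSG its log2 ratio ran from -0.69 to -0.27 over the 6 mice at 28 µmol/kg (median -0.58), from -1.85 to -0.98 at 84 µmol/kg (median -1.37) and from -2.14 to -1.75 at 280 µmol/kg (median -1.90). The mean at 280 µmol/kg was -1.93 ± 0.16 (SD, n = 6), or 26.3% of the pool (limma, adjusted p = 9.7e-17). Every mouse at 84 or 280 µmol/kg was below every mouse at 28 µmol/kg, and the groups at 84 and 280 µmol/kg overlapped slightly. With S the values ran from -0.19 to 0.38 at 28 µmol/kg (median 0.18), from -0.75 to -0.06 at 84 µmol/kg (median -0.47) and from -2.28 to -1.55 at 280 µmol/kg (median -1.93), the last with a mean of -1.93 ± 0.31, also 26.3% of the pool (adjusted p = 5.6e-17). The groups of both compounds overlapped at the highest dose. The second Rgs5 probe gave -2.15 for RSG and -2.09 for S.

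Kcnj8, the pore subunit of the ATP-sensitive channel of pericytes, was next. It lay between -1.69 and -1.07 with RSG (median -1.37) and between -2.31 and -0.92 with S (median -1.15) at 280 µmol/kg, with means of -1.38 ± 0.21 and -1.36 ± 0.51 (SD, n = 6), or 38.5% and 38.9% of the pool (adjusted p = 2.6e-11 and 2.0e-11). At 28 µmol/kg the means were -0.01 and 0.08 and the mice lay on both sides of the pool. Every mouse at 280 µmol/kg was below every mouse at 28 µmol/kg of the same compound. Its channel partner Abcc9 had values of -1.02 to -0.26 with RSG at 280 µmol/kg (median -0.64) and -1.08 to -0.73 with S (median -0.98). The means were -0.66 ± 0.28 and -0.95 ± 0.12 (adjusted p = 9.0e-08 and 3.4e-11), and those of the 28 µmol/kg groups were -0.26 and -0.14. For RSG the mice at 28 and 280 µmol/kg overlapped in Abcc9, for S they did not.

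Pdgfrb, the receptor through which PDGF-B recruits pericytes, lay between -0.97 and -0.62 at 280 µmol/kg RSG (median -0.74) and between -1.32 and -0.52 at 280 µmol/kg S (median -0.58). The means were -0.77 ± 0.12 and -0.70 ± 0.31 (SD, n = 6; adjusted p = 6.7e-11 and 3.6e-10), and no mouse of these groups reached the range of the 28 µmol/kg groups, -0.19 to 0.12 with RSG and -0.11 to 0.25 with S. The lowest Pdgfrb value with S, -1.32, belonged to replicate 5. Notch3, a Notch receptor of pericytes and vascular smooth muscle, had values of -0.91 to -0.71 with RSG (median -0.81) and -0.98 to -0.55 with S (median -0.84), with means of -0.82 ± 0.08 and -0.79 ± 0.15 (adjusted p = 5.9e-14 and 7.5e-14). It was the only one of the 33 genes besides Cldn5 that was called lower than the pool (adjusted p under 0.05) at each dose of both compounds. Cspg4, the NG2 proteoglycan, went the other way. Its means at 28 and 84 µmol/kg were 0.27 and 0.32 with RSG (adjusted p = 0.0019 and 0.00018) and 0.28 and 0.21 with S (adjusted p = 0.0015 and 0.011), and those at 280 µmol/kg, 0.13 ± 0.29 and 0.14 ± 0.12, did not pass the test. A second Cspg4 probe gave 0.42 and 0.58 at 280 µmol/kg and passed (adjusted p = 9.7e-05 and 5.1e-07), and the remaining one gave 0.03 and 0.07 and did not. Of the 6 pericyte genes, 5 were thus lower and none higher at 280 µmol/kg of either compound, beside 29.8% and 32.1% of all probes lower with RSG and S. With the scan day as a fixed block Notch3 was not called at 28 µmol/kg RSG (-0.14, adjusted p = 0.28).

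**Figure D2:**
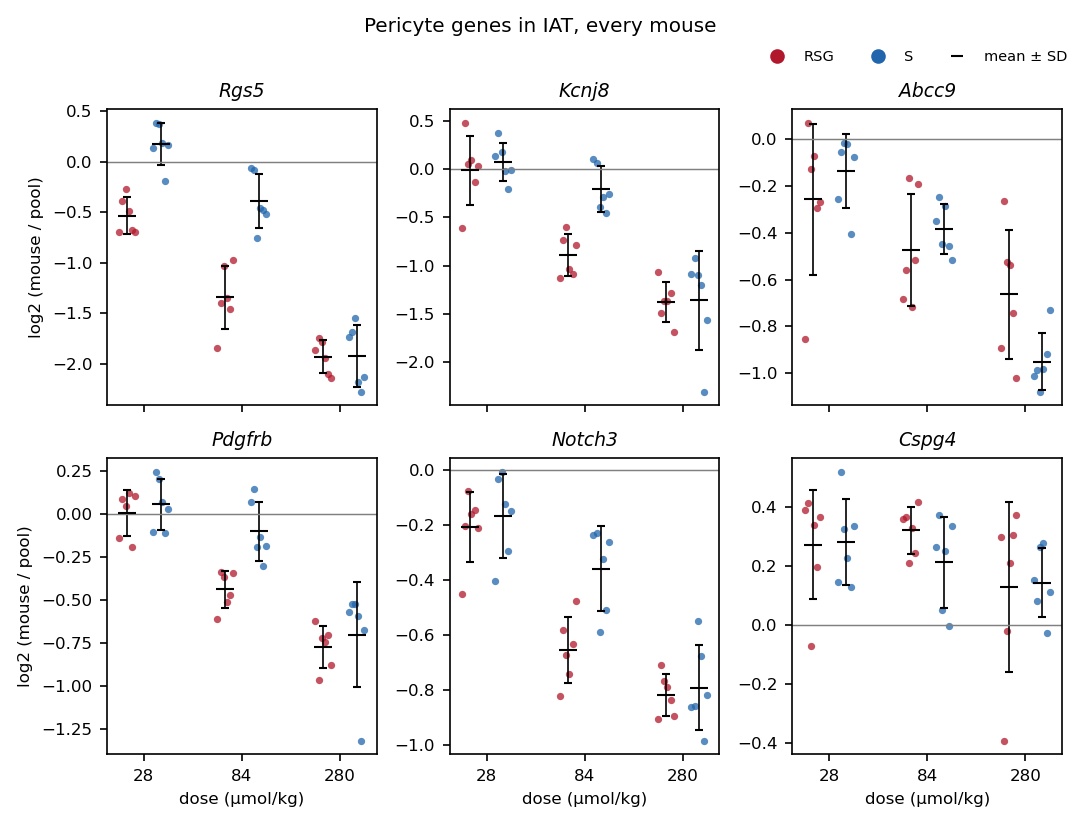
The 6 pericyte genes in IAT: log2 ratio of treated mouse over pool (vertical axis, its scale differs between panels) by dose in µmol/kg. Each point is 1 mouse, red for RSG and blue for S, bars are mean ± SD of 6 mice and the grey line is the pool. Rgs5 reaches a mean of -1.93 at 280 µmol/kg of both compounds but -1.34 with RSG and -0.39 with S at 84 µmol/kg, and Cspg4 stays near or above the pool.

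Among the 7 receptors and co-receptors 4 were lower and only Kdr was higher at 280 µmol/kg of either compound. Kdr, the main signalling receptor for VEGF-A on endothelium, lay between 0.67 and 0.88 in the mice at 280 µmol/kg RSG (median 0.76) and between 0.12 and 0.63 in those at 280 µmol/kg S (median 0.40). The means were 0.77 ± 0.08, or 170% of the pool, and 0.38 ± 0.23 (SD, n = 6; adjusted p = 1.3e-09 and 0.00015). All 12 mice were above the pool, and the range of RSG lay wholly above that of S. At 28 and 84 µmol/kg Kdr had means of 0.41 and 0.61 with RSG, both higher than the pool (adjusted p = 0.00015 and 1.9e-07), and of 0.23 and 0.07 with S, of which the second did not pass the test (adjusted p = 0.024 and 0.50).

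The other VEGF receptors did not follow Kdr. Flt1, a receptor that binds VEGF-A and VEGF-B and can trap them, had values of -0.43 to -0.14 at 280 µmol/kg RSG (median -0.36), with a mean of -0.34 ± 0.10 (adjusted p = 2.1e-05), after 0.19 at 28 µmol/kg (adjusted p = 0.013). With S its mean at 280 µmol/kg was -0.21 ± 0.21 (adjusted p = 0.0036), with 5 of 6 mice below the pool. The Flt1 probes differed: with RSG the other 3 gave -0.17, -0.17 and -0.21, of which the first and last passed, and with S they gave 0.03, 0.16 and -0.08, none of which passed. Flt4, the receptor for VEGF-C on lymphatic endothelium, was called only at 84 µmol/kg S (0.16, adjusted p = 0.042) and had means of 0.06 and 0.01 at 280 µmol/kg.

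Both angiopoietin-system receptors were low. Tek, which binds angiopoietins, lay between -0.81 and -0.38 at 280 µmol/kg RSG (median -0.63) and between -0.69 and -0.25 at 280 µmol/kg S (median -0.42), with means of -0.61 ± 0.14 and -0.43 ± 0.17 (adjusted p = 3.0e-11 and 2.9e-08). Its second probe gave -0.43 (adjusted p = 4.3e-05) for RSG and -0.13 (adjusted p = 0.15) for S. Tie1, the orphan partner of Tek, had values of -0.73 to -0.27 with RSG (median -0.55) and -0.83 to -0.48 with S (median -0.57), with means of -0.55 ± 0.16 and -0.60 ± 0.14 (adjusted p = 8.3e-10 and 8.5e-11), and was already lower at 28 µmol/kg RSG (-0.27, adjusted p = 0.00031). Every mouse was below the pool in both genes at this dose. Ramp2, the co-receptor that makes the calcitonin receptor-like receptor respond to adrenomedullin, lay between -0.49 and -0.21 with RSG (median -0.44) and between -0.82 and -0.39 with S (median -0.60), with means of -0.40 ± 0.10 and -0.61 ± 0.15 (adjusted p = 8.5e-07 and 2.0e-10). Endoglin (Eng), a co-receptor for TGF-β family ligands, was higher at 28 and 84 µmol/kg RSG (0.17 and 0.21, adjusted p = 0.024 and 0.0033) and was not called at 280 µmol/kg of either compound (0.12 and 0.08).

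In the group of adhesion, junction and wall genes none was higher at 280 µmol/kg. With RSG 7 of 11 were lower and with S 10 of 11, beside 29.8% and 32.1% of all probes. Plvap, which forms the diaphragms of fenestrae and caveolae, was the lowest of them with RSG: from -0.91 to -0.67 (median -0.76) and, with S, from -0.80 to -0.60 (median -0.63), with means of -0.77 ± 0.08 and -0.67 ± 0.08 (SD, n = 6), or 58.5% and 63.0% of the pool (adjusted p = 1.7e-13 and 3.3e-12). No mouse at 280 µmol/kg overlapped the 28 µmol/kg group of its compound. Emcn, the capillary and venous sialomucin endomucin, ran from -0.65 to -0.30 with RSG (median -0.50) and from -1.12 to -0.11 with S (median -0.48), with a mean of -0.50 in both (adjusted p = 1.8e-05 and 1.3e-05). At 28 µmol/kg S it was higher than the pool (0.29, adjusted p = 0.011), so that the dose groups of S lay on opposite sides of the pool without overlap.

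Vwf, the adhesive glycoprotein stored in endothelial granules, lay between -0.51 and -0.26 with RSG (median -0.47) and between -0.37 and -0.08 with S (median -0.19) at 280 µmol/kg. The means were -0.43 ± 0.09 and -0.19 ± 0.11 (adjusted p = 7.1e-10 and 0.00035), whereas at 28 µmol/kg S all 6 mice were above the pool (0.15 ± 0.08, adjusted p = 0.0070). Egfl7, a secreted factor of the endothelial matrix, had values of -0.60 to -0.27 with RSG (median -0.48) and -0.81 to -0.28 with S (median -0.40), with means of -0.44 and -0.45 (adjusted p = 1.9e-07 and 1.3e-07). Esam, an adhesion molecule of endothelial tight junctions, ran from -0.54 to -0.32 with RSG (median -0.40) and from -0.53 to -0.32 with S (median -0.47), with means of -0.41 and -0.45 (adjusted p = 3.6e-08 and 4.1e-09). In these genes every mouse at 280 µmol/kg was below the pool.

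Cdh5, the adherens junction protein VE-cadherin, lay between -0.50 and -0.11 with RSG (median -0.23) and between -0.74 and -0.24 with S (median -0.47), with means of -0.26 ± 0.15 and -0.49 ± 0.18 (adjusted p = 0.0046 and 2.0e-06). Cldn5, the tight junction claudin of endothelium, differed from the others in its course over the doses: it was lower at every dose of both compounds, with means of -0.53, -0.26 and -0.24 for RSG at 28, 84 and 280 µmol/kg (adjusted p = 0.00011, 0.026 and 0.038) and of -0.57, -0.79 and -0.68 for S (adjusted p = 4.0e-05, 1.9e-07 and 7.2e-07). Over the mice it ran from -0.40 to -0.10 at 280 µmol/kg RSG (median -0.24) and from -1.27 to -0.23 at 280 µmol/kg S (median -0.74). All 36 mice were below the pool in Cldn5, though 1 mouse at 84 µmol/kg RSG was only just so. Without replicate 2 of the 280 µmol/kg RSG group that group's call was lost (-0.25, adjusted p = 0.055). With the scan day as a fixed block Cldn5 was not called at 28 or 84 µmol/kg RSG (-0.36 and -0.25, adjusted p = 0.084 and 0.064), nor was Cdh5 at 280 µmol/kg RSG (-0.25, adjusted p = 0.12).

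The remaining genes of this group had smaller values. Pecam1, the pan-endothelial adhesion molecule, ran from -0.30 to -0.08 at 280 µmol/kg S (median -0.17; mean -0.19, adjusted p = 0.0012), and with RSG its mean was -0.10 (adjusted p = 0.088). A second Pecam1 probe gave -0.05 for RSG and 0.15 for S, and neither passed. Icam2 and Robo4, an endothelial ligand of leukocyte integrins and a receptor that stabilises vessels, were lower at 280 µmol/kg S: Icam2 ran from -0.40 to -0.13 (median -0.26; mean -0.24, adjusted p = 0.00035) and Robo4 from -0.39 to -0.11 (median -0.18; mean -0.22, adjusted p = 0.0016). With RSG at 280 µmol/kg their means were 0.06 and -0.06 (adjusted p = 0.33 and 0.41). Of these, Icam2 passed the test of the difference between the compounds, which Pecam1 (adjusted p = 0.46) and Robo4 (adjusted p = 0.28) did not. Nos3, the endothelial nitric oxide synthase, was higher at 28 and 84 µmol/kg of both compounds (0.21 and 0.29 with RSG, 0.29 and 0.26 with S, adjusted p between 0.0027 and 0.030) and was not called at 280 µmol/kg (0.07 and 0.09).

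The transcription factors Sox17 and Sox18, which specify arterial and early endothelium, had no call at 280 µmol/kg. Sox17 was higher at 28 µmol/kg RSG and S (0.23 in both, adjusted p = 0.030 and 0.029), and a further Sox17 probe gave -0.38 at 280 µmol/kg RSG (adjusted p = 0.0069). The scavenger receptors took different directions. Stab1 lay between -0.87 and -0.19 at 280 µmol/kg RSG (median -0.51) and between -0.87 and -0.56 with S (median -0.78), with means of -0.55 ± 0.24 and -0.75 ± 0.12 (adjusted p = 7.8e-09 and 5.9e-12), while Stab2, its relative that clears hyaluronan, lay between 0.28 and 0.61 with RSG (median 0.46; mean 0.45 ± 0.14, adjusted p = 2.0e-09). With S Stab2 had a mean of 0.21 ± 0.21 (adjusted p = 0.00028), with 5 of 6 mice above the pool. The second Stab1 probe showed smaller values, -0.10 with RSG (adjusted p = 0.25) and -0.21 with S (adjusted p = 0.012). Lyve1, the hyaluronan receptor of lymphatic and sinusoidal endothelium, was lower at 280 µmol/kg S (-0.33 ± 0.37, adjusted p = 0.012), with 4 of 6 mice below the pool.

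Of the ligands, Vegfb, which acts through Flt1, was higher at 280 µmol/kg of both compounds. Its values ran from 0.07 to 0.25 with RSG (median 0.15) and from 0.05 to 0.34 with S (median 0.25), with means of 0.16 ± 0.06 and 0.24 ± 0.11 (SD, n = 6; adjusted p = 0.0014 and 5.5e-06). The other probe gave 0.37 and 0.48. With the scan day as a fixed block the brightest probe was not called for RSG (0.11, adjusted p = 0.18). Angpt2, the context-dependent antagonist of Tek, ran from -1.21 to -0.34 with RSG (median -0.62) and from -0.59 to -0.22 with S (median -0.40), with means of -0.69 ± 0.34 and -0.40 ± 0.16 (adjusted p = 3.3e-09 and 3.0e-05). Angpt1, the Tek agonist made by pericytes and stroma, was lower at every dose of RSG (-0.37, -0.60 and -0.39) and at 84 and 280 µmol/kg S (-0.37 and -0.72), but under the day block its value at 84 µmol/kg S turned to 0.07 (adjusted p = 0.84). At 280 µmol/kg S its mice ran from -1.07 to -0.17 (median -0.84; adjusted p = 7.8e-07). Vegfa, the main endothelial growth factor, gave no single answer. Its brightest probe ran from -0.51 to -0.20 at 280 µmol/kg S (median -0.28; mean -0.32, adjusted p = 8.5e-05) and had a mean of -0.11 with RSG (adjusted p = 0.13). The other 2 Vegfa probes were higher, with 0.46 and 0.68 for RSG and 0.32 and 0.57 for S (adjusted p between 2.1e-06 and 0.0015), and the mean of the 3 probes for S was 0.19.

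**Figure D3:**
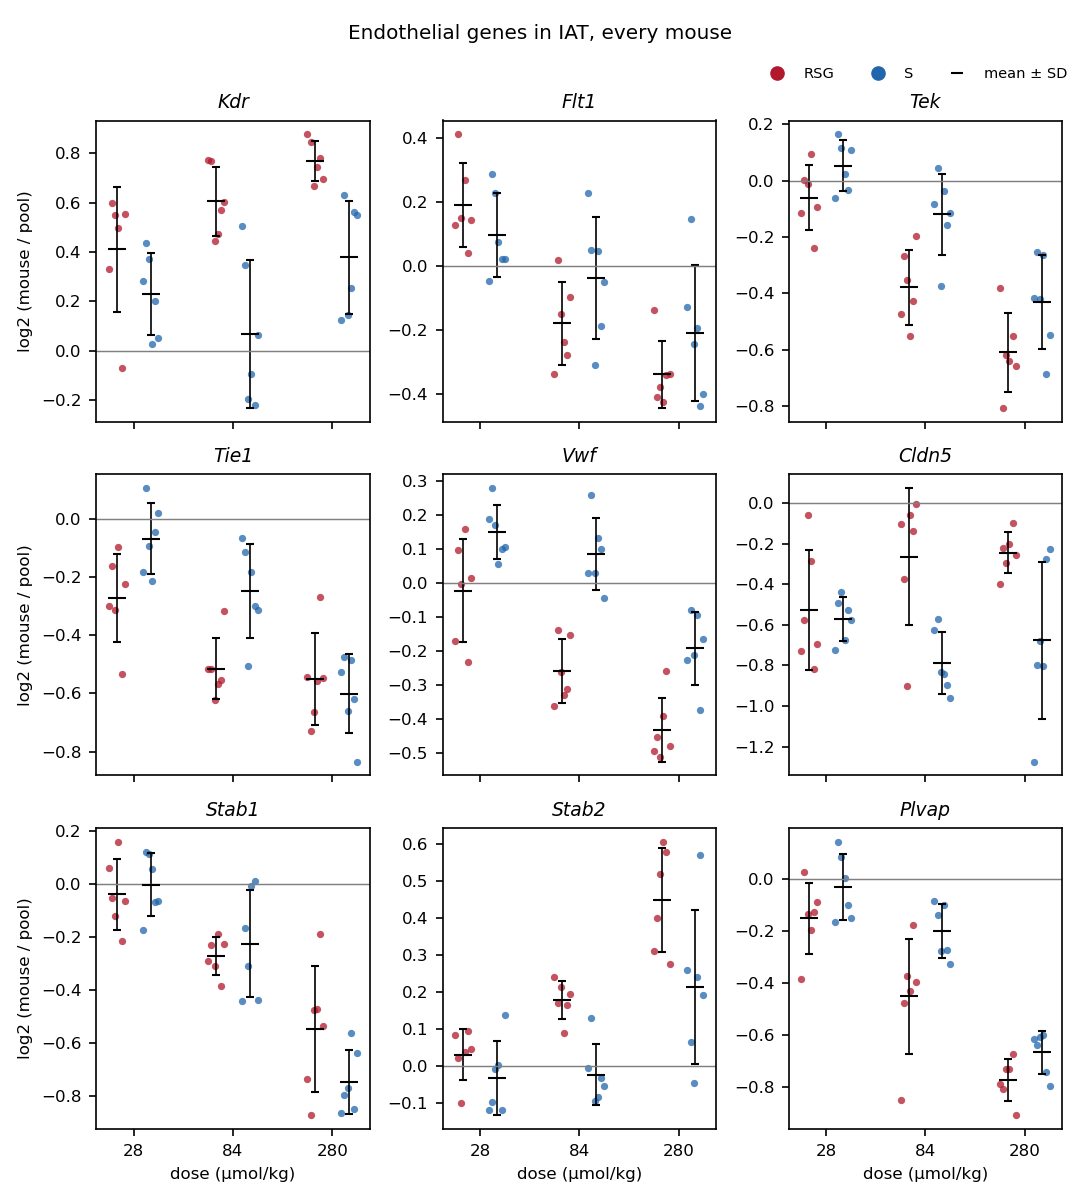
Selected endothelial genes in IAT: log2 ratio of treated mouse over pool (vertical axis, its scale differs between panels) by dose in µmol/kg, 1 point a mouse, red for RSG and blue for S, with mean ± SD of 6 mice and the pool as a grey line. Kdr and Stab2 end above the pool at 280 µmol/kg, whereas Flt1, Tek, Tie1, Vwf, Stab1 and Plvap descend and Cldn5 is below the pool at every dose.

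The dependence on dose was tested as the difference between 280 and 28 µmol/kg, in which the pool cancels. With RSG 17 of 33 genes fell from the low to the high dose and 3 rose, beside 11.3% and 13.4% of all probes (24.7% together). With S 20 fell and 2 rose, beside 16.8% and 26.0% (42.8% together). The medians were -0.28 and -0.41 over the 33 genes and 0.01 and 0.03 over all probes. Rgs5 fell by 1.40 on the log2 scale with RSG (95% confidence interval -1.69 to -1.10) and it fell by 2.10 with S (-2.39 to -1.81). The other pericyte genes that fell had log2 differences of -1.36 and -1.44 for Kcnj8, -0.78 and -0.76 for Pdgfrb, -0.61 and -0.62 for Notch3, and -0.41 and -0.81 for Abcc9. Among endothelial genes and ligands the differences were -0.67 and -0.79 for Emcn, -0.62 and -0.64 for Plvap, -0.60 and -0.58 for Angpt2 and -0.55 and -0.48 for Tek. The genes that rose were Stab2 (0.42 with RSG and 0.25 with S), Vegfb (0.19 and 0.26) and, with RSG, Kdr (0.36, adjusted p = 0.024). Cldn5, Pecam1, Robo4, Nos3, Sox17, Sox18, Flt4, Eng, Lyve1 and Cspg4 passed with neither compound. Replicate 5 of the 28 µmol/kg RSG group had ratios that correlated with those of its group by only 0.406 on average, over the probes brighter than the median. Leaving this mouse out ended the calls of Kdr (0.26, adjusted p = 0.087) and Vegfb (0.15, adjusted p = 0.061) and left 18 of the 20 genes called. Without replicate 2 of the 280 µmol/kg RSG group Cdh5 was not called (-0.29, adjusted p = 0.066).

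The arrays of IAT were scanned on several days, and the group at 280 µmol/kg S was scanned on days of its own, so that in this group scan day and treatment cannot be told apart. On the day that 4 mice at 84 and 4 mice at 28 µmol/kg RSG shared, Rgs5 had means of -1.41 and -0.53, Kcnj8 of -0.87 and 0.01, and 23 of the 33 genes were lower at the higher dose. The 6 mice at 280 µmol/kg RSG were scanned with 4 mice at 28 µmol/kg S, with Rgs5 means of -1.93 and 0.27, Kdr means of 0.77 and 0.28 and 24 of 33 genes lower in the RSG mice. With the scan day as a fixed block the count for 280 against 28 µmol/kg RSG went from 20 to 10 genes. Rgs5 (-1.59, adjusted p = 0.0011), Kcnj8 (-1.33), Pdgfrb (-0.84), Notch3 (-0.82) and Vwf (-0.46) were among these 10, and Kdr was not (0.41, adjusted p = 0.30). Against the pool the same block gave 2 calls in place of 13 at 28 µmol/kg RSG, 4 in place of 8 at 28 µmol/kg S and 2 in place of 13 at 84 µmol/kg S.

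RSG and S were compared at equal molar dose, 33 genes at each of 3 doses, with p-values adjusted over all 31429 probes. At 28 µmol/kg limma called none of the 33, and none of all probes (0%), although 4 genes had an unadjusted p under 0.05. Rgs5 had the largest difference there, -0.71 ± 0.14 (standard error, adjusted p = 0.15). At 84 µmol/kg 5 genes differed, 4 lower and 1 higher with RSG, beside 0.697% and 1.35% of all probes (2.05% together). Rgs5 was lower with RSG by a log2 difference of -0.95 (95% confidence interval -1.25 to -0.66, adjusted p = 0.00043), from RSG mice at -1.85 to -0.98 and S mice at -0.75 to -0.06, which did not overlap. Kcnj8 differed by -0.69 (-1.05 to -0.33, adjusted p = 0.030), with RSG mice at -1.13 to -0.60 and S mice at -0.45 to 0.11, again without overlap. Notch3 differed by -0.30 (-0.46 to -0.13, adjusted p = 0.044), with RSG mice at -0.82 to -0.48 and S mice at -0.59 to -0.23, which overlapped. Vwf differed by -0.34 (-0.47 to -0.21, adjusted p = 0.0035), with RSG mice at -0.36 to -0.14 and S mice at -0.04 to 0.26. Kdr was higher with RSG by 0.54 (0.30 to 0.78, adjusted p = 0.011), with RSG mice at 0.44 to 0.77 and S mice at -0.22 to 0.51, which overlapped, while those of Vwf did not. Cldn5, at 0.52 (0.23 to 0.82, adjusted p = 0.052), did not pass.

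Between the groups at 280 µmol/kg no pericyte gene passed the test: the difference was -0.00 for Rgs5 (-0.30 to 0.29), -0.01 for Kcnj8 (-0.37 to 0.34), -0.03 for Notch3 (-0.19 to 0.14), -0.07 for Pdgfrb (-0.28 to 0.14) and 0.29 for Abcc9 (0.03 to 0.54, adjusted p = 0.19). Only Vwf (-0.24, -0.37 to -0.11, adjusted p = 0.049) and Icam2 (0.31, 0.14 to 0.48, adjusted p = 0.047) were called, beside 1.15% lower and 0.388% higher of all probes (1.54% together), and 14 of the 33 had an unadjusted p under 0.05. Neither was called without replicate 2 of the 280 µmol/kg RSG group, and Icam2 was not called without replicate 5 of the 280 µmol/kg S group (0.28, adjusted p = 0.12). Kdr differed by 0.39 (0.15 to 0.63, adjusted p = 0.077). No day held mice of both compounds at the same dose, so no within-day value could be had, and with the scan day as a fixed block none of the 33 differed at 84 µmol/kg (Rgs5 -1.11, adjusted p = 0.31).

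**Figure D4:**
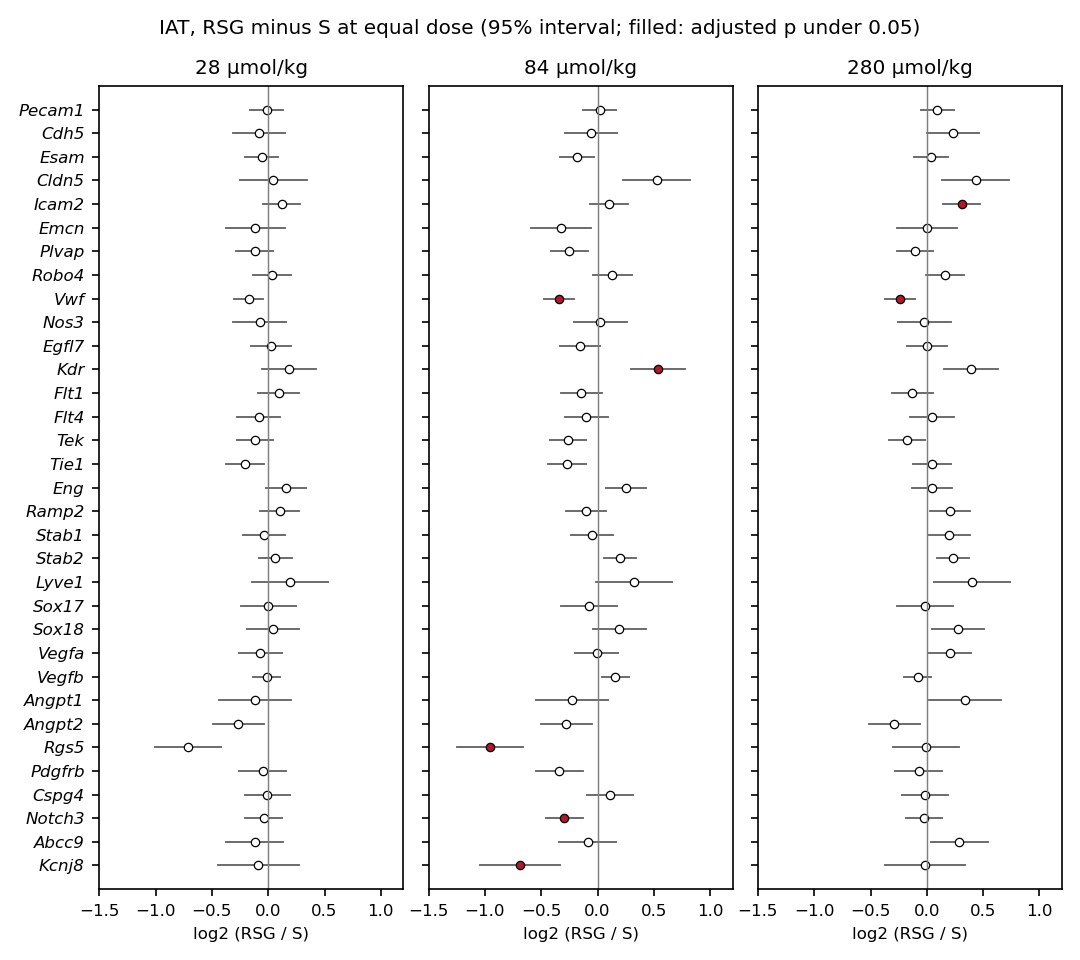
Difference between RSG and S in IAT at each dose for the 33 genes: log2 of RSG over S (horizontal axis), points are means over 6 mice each and lines 95% confidence intervals, filled where the adjusted p is under 0.05. At 84 µmol/kg Rgs5, Kcnj8, Notch3 and Vwf lie to the left and Kdr to the right, and at 280 µmol/kg only Vwf and Icam2 are filled.

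Further vessel genes of IAT were counted from lists chosen for their cell type or pathway. Of 38 other endothelial genes tested, 22 were lower and 4 higher at 280 µmol/kg RSG, and 28 lower and 4 higher at 280 µmol/kg S, beside 29.8% lower and 36.6% higher of all probes with RSG and 32.1% and 42.1% with S, which hold for the lists that follow too. Cd34, a surface sialomucin of endothelium and adipose progenitors, had log2 ratios of -1.19 and -1.18, the water channel Aqp1 -0.53 and -0.66, the ETS factor Erg -0.35 and -0.47, the sphingosine receptor S1pr1 -0.35 and -0.34 and Sox7 -0.33 and -0.39. Gpihbp1, which anchors lipoprotein lipase on capillaries, had 0.05 with RSG (adjusted p = 0.53) and -0.22 with S (adjusted p = 0.0047). Of 43 signals of vessel growth, 25 were lower and 3 higher with RSG, and 28 lower and 4 higher with S. The apelin receptor Aplnr had -0.91 and -0.61, Vegfc, the ligand of Flt4, -0.76 and -0.70, the Notch ligand Dll4 -0.34 and -0.22 and the hypoxia factor Epas1 -0.27 and -0.28. Angptl4, a lipase inhibitor and a PPAR target, had 0.18 (adjusted p = 0.14) and 0.28 (adjusted p = 0.019), and Pgf had no call. Of 24 mural and smooth muscle genes, 15 and 17 were lower and 2 higher with each compound. Mcam, an adhesion molecule of endothelium and mural cells that was counted in the endothelial list, had -0.62 and -0.51. Acta2, smooth muscle actin, had -0.81 and -1.40, and the pericyte gene Higd1b had no call. Myh11 and Tagln, contractile genes of smooth muscle, differed from Rgs5 in their course over the doses. Myh11 had -1.68, -1.73 and -1.76 over the doses of RSG and -1.67, -1.71 and -1.89 over those of S, and Tagln had -1.43, -1.33 and -1.56 and -1.47, -1.36 and -1.45.

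Markers of other cells in the tissue moved as well, beside the same shares of all probes (29.8% and 32.1% lower, 36.6% and 42.1% higher). Of 15 adipocyte genes 9 were higher and 3 lower at 280 µmol/kg RSG, and 11 higher and 3 lower at 280 µmol/kg S. Of 18 preadipocyte and fibroblast genes 15 and 17 were lower and none higher, and of 19 macrophage genes 15 were lower and none higher with either compound. Epithelial genes were lower for 8 of 19 with RSG and 15 of 19 with S, with list medians in single mice between -3.50 and 0.33 at 280 µmol/kg RSG and between -4.16 and 0.57 at 280 µmol/kg S. Skeletal muscle genes were lower for 13 and 16 of 21, with list medians between -3.27 and 0.46 and between -3.64 and -0.91. Epcam and Ckm, which define these types, were well above background in the pool channel on all 72 arrays. The part of these cells in the values of the vessel genes was not tested.

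In liver the same genes were mostly above the pool. Of 32 tested, 23, 26 and 23 were higher at 28, 84 and 280 µmol/kg RSG and none was lower, beside 24.8%, 23.9% and 21.4% higher and 33.8%, 32.7% and 29.5% lower of all 26022 probes tested, or 58.5%, 56.5% and 50.9% called. With S 16, 20 and 17 were higher, beside 23.0%, 23.7% and 27.9% of all probes higher and 51.3%, 54.3% and 65.9% called, and Plvap alone was lower, at 280 µmol/kg, where 38.0% of all probes were. The medians over the 32 genes were 0.22, 0.28 and 0.25 for RSG and 0.14, 0.21 and 0.15 for S, and those over all probes lay between -0.05 and -0.02. With the scan day as a fixed block the genes called with S became 4, 12 and 11, and Kdr was among them at no dose.

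Repeat hybridisations of liver RNA bear directly on these values. For each compound at 28 µmol/kg, 6 technical repeats were run on scan days of their own and enter no test. The labels do not say which mouse they came from. Over 26022 probes their mean correlated best with replicate 1 in both groups (0.82 for RSG and 0.75 for S, against 0.58 to 0.78 and 0.48 to 0.62 for the other mice). The repeats themselves were close to each other, with a median SD of 0.0462 and 0.0453 over the 32 genes, against 0.129 between mice in both groups. Yet of the 32 genes only 10 were above the pool in the mean of the S repeats, against 12 in replicate 1 and 27 in the mean of the 6 mice. For RSG these counts were 23, 27 and 29. All repeats lay below every mouse of the group in 11 genes for S and in 8 for RSG, among them Kdr, Cldn5, Lyve1, Sox18 and Stab1 in both, and above every mouse in none. Of all probes 9.52% lay below and 11.9% above every mouse for S, and 8.08% and 10.8% for RSG. Lyve1 had -0.64 in the S repeats and -0.47 in the RSG repeats, where replicate 1 had -0.13 and 0.09, and Kdr had -0.26 and -0.01, where replicate 1 had -0.06 and 0.14. Vegfb held its level, with 0.60 and 0.78 in the repeats and 0.50 and 0.69 in replicate 1. The repeats differed from replicate 1 by -0.51 and -0.57 in Lyve1 and by -0.06 and -0.05 in the median gene. Why the repeats were lower was not tested.

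Vegfb was the highest of the 32 genes in each liver group. It ran from 0.43 to 0.83 over the mice at 280 µmol/kg RSG (median 0.74) and from 0.76 to 1.10 at 280 µmol/kg S (median 1.00), with means of 0.71 ± 0.16 and 0.97 ± 0.13 (SD, n = 6), or 163% and 195% of the pool (adjusted p = 3.6e-11 and 4.3e-15). All mice of all doses were above the pool. Cldn5, which was low in IAT, ran from 0.44 to 0.84 at 280 µmol/kg RSG (median 0.63) and from 0.30 to 0.77 at 280 µmol/kg S (median 0.64), with means of 0.62 ± 0.14 and 0.61 ± 0.16 (adjusted p = 1.7e-09 and 6.8e-10). Icam2 had means of 0.53, 0.59 and 0.44 over the doses of RSG and of 0.37, 0.56 and 0.53 over those of S. Kcnj8 had means of 0.38, 0.68 and 0.45 and of 0.40, 0.45 and 0.48, and all 36 mice were above the pool in this gene.

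Kdr was higher at each dose of both compounds, with means of 0.34, 0.40 and 0.44 for RSG and 0.20, 0.21 and 0.22 for S. Flt1, Ramp2, Esam, Emcn, Robo4, Vwf and Sox17 were likewise called higher in all 6 groups, with means between 0.15 and 0.44. Lyve1, which marks the liver sinusoid, had means of 0.44, 0.44 and 0.57 with RSG and of 0.10, 0.40 and 0.30 with S, the first of these not called. Pecam1, Cdh5 and Nos3 were called at all doses of RSG. With S Pecam1 and Cdh5 were called at no dose (means 0.03 to 0.11) and Nos3 at 28 µmol/kg alone (0.15, adjusted p = 0.037). Vegfa was higher at 280 µmol/kg of both compounds (0.26 and 0.11, adjusted p = 2.1e-05 and 0.034). Of the pericyte genes, Rgs5 was higher at all doses of RSG (0.28, 0.34 and 0.24) and at 28 and 84 µmol/kg S (0.28 and 0.24), and had -0.10 at 280 µmol/kg S (adjusted p = 0.24). Pdgfrb was higher in the same 5 groups (0.20 to 0.33), Notch3 and Abcc9 were called in none, and Cspg4 was called at 84 µmol/kg RSG (0.24, adjusted p = 0.011). Eng was called in no liver group.

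Few of the 32 genes were called between doses in liver. Between 280 and 28 µmol/kg RSG limma called none of the 32 genes, beside 0.0115% of all probes, and Vegfa alone had an unadjusted p under 0.05. With S 4 genes differed, beside 28.5% of all probes: Vegfb rose by 0.36 and Egfl7 by 0.24, and the log2 differences of Rgs5 and Plvap, which fell, were -0.38 and -0.31. Plvap alone of these was called with the scan day as a fixed block. Between the compounds none of the 32 was called at 28 or 84 µmol/kg (0.749% and 1.72% of all probes), with 4 and 3 genes at an unadjusted p under 0.05. With 280 µmol/kg 3 were called, beside 27.6% of all probes. Kdr was higher with RSG by 0.23 (95% confidence interval 0.07 to 0.38, adjusted p = 0.024) and Rgs5 by 0.34 (0.13 to 0.56, adjusted p = 0.014), and Vegfb was lower by -0.26 (-0.44 to -0.08, adjusted p = 0.024). Replicate 2 of the 280 µmol/kg RSG group stood apart, with a mean correlation of 0.432 to its group. Without it Kdr (0.18, adjusted p = 0.079) and Vegfb (-0.21, adjusted p = 0.082) were not called, 5 genes differed between the compounds, and 27 of 32 genes were higher than the pool at 280 µmol/kg RSG. Rgs5 alone was called with the scan day as a fixed block, and the difference of Vegfb turned to 0.02 (adjusted p = 0.95). The 2 mice of each compound at 280 µmol/kg that shared a scan day had Rgs5 means of 0.44 with RSG and -0.27 with S, and Vegfb means of 0.82 in both.

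Liver markers of other cells moved beside these genes, where 29.5% and 38.0% of all probes were lower and 21.4% and 27.9% higher with RSG and S. Of 18 skeletal muscle genes 15 were lower at 280 µmol/kg RSG and 16 at 280 µmol/kg S, with list medians in single mice between -1.34 and -0.20 and between -1.30 and -0.84. Of 14 adipocyte genes 10 and 9 were higher, of 18 macrophage genes 11 and 8 were higher, and of 15 hepatocyte genes 10 and 12 were lower. Adipoq, a defining adipocyte marker, was well above background on 27 of 72 treated channels and 63 of 72 pool channels in liver. For Plin1, the other, these counts were 23 and 29. The adipocyte list held Fabp4 and Gpd1, which the paper reported higher in RSG liver among genes of fatty acid transport and triglyceride synthesis. Ckm, the muscle creatine kinase, was well above background on 2 of 72 liver arrays in the treated channel and on 15 in the pool channel. Acta1, the other defining muscle marker, was so on 48 arrays in the treated channel and on all 72 in the pool channel. The part of these cells in the liver values was not tested.

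The difference between the tissues was tested in a fit of both. At 280 µmol/kg RSG 27 of 32 genes differed, 25 with a lower and 2 with a higher ratio in IAT, beside 21.9% and 38.7% of the 25527 probes tested in both tissues (60.6% together). With S 25 differed, all with a lower ratio in IAT, beside 25.8% lower and 47.1% higher (72.9% together). The medians of the difference were -0.65 and -0.59 over the 32 genes and 0.11 and 0.16 over all probes. Rgs5 differed by -2.17 with RSG (95% confidence interval -2.42 to -1.92, adjusted p = 6.4e-23) and by -1.83 with S (-2.08 to -1.58, adjusted p = 3.6e-20). Kcnj8 differed by -1.82 and -1.84 (adjusted p = 1.8e-16 and 3.9e-17), and the mice of both tissues lay on opposite sides of the pool without exception. Pdgfrb differed by -1.05 and -0.84, Cldn5 by -0.87 and -1.29 and Ramp2 by -0.77 and -0.83. Kdr and Stab2 had the higher ratio in IAT with RSG, by 0.32 (adjusted p = 0.0040) and 0.27 (adjusted p = 0.00058), and with S neither was called. Each tissue was set against its own pool, so both pools remain in these differences. The labels do not say whether a replicate number stands for the same animal in both tissues. The paper, which does not describe S, took both tissues from groups of 6 mice, whereas this fit treated all 72 samples as separate animals. The deviations of mice from their group correlated between the tissues by a median of 0.168 for equal numbers and -0.03 for unequal numbers of the same compound and dose. The share of such pairs with a correlation above 0.1 was 0.667 and 0.0778.

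**Figure D5:**
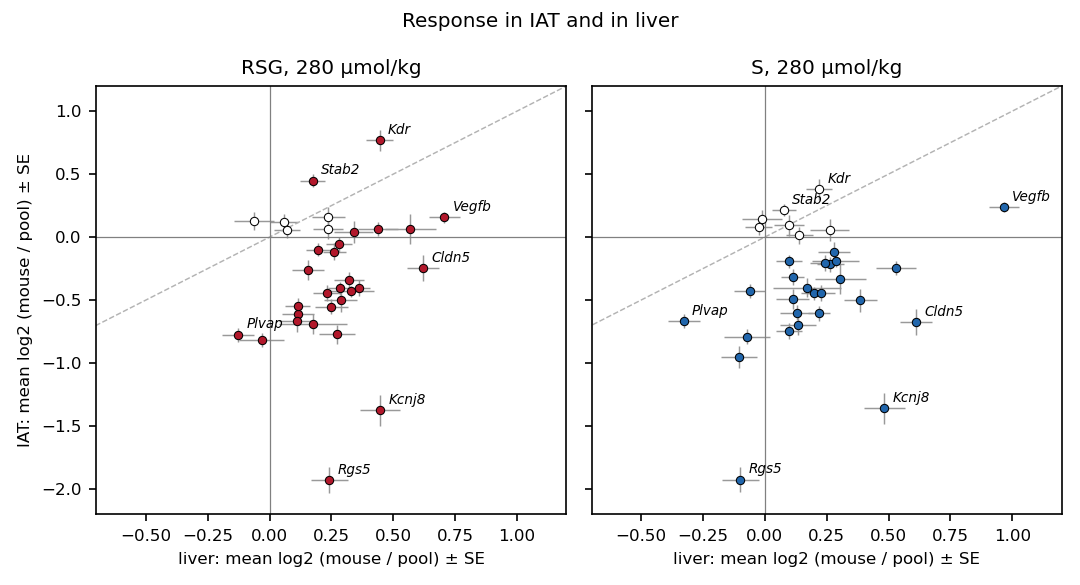
Response at 280 µmol/kg in liver (horizontal axis) against IAT (vertical axis), mean log2 ratio of treated mouse over pool ± SE, 1 point for each of 32 genes, left for RSG and right for S. Filled points have an adjusted p under 0.05 for the difference between the tissues, the dashed line marks equal responses and the solid lines the pool. Rgs5 and Kcnj8 lie far below the line, at -1.93 and -1.38 in IAT with RSG, and Kdr and Stab2 lie above it with RSG.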

How the data were processed

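Gene expression was measured on 168 2-colour Agilent arrays, 144 of 72 tissue samples of treated mice and 24 of technical repeats of liver RNA that enter no test. The authors extracted the scanner files with Agilent Feature Extraction 9.5, which subtracted background and normalised the dyes. The deposited log10 ratio of each spot was turned so that treated stands over pool, expressed as log2 and averaged over spots of a probe and then over both arrays. The deposited intensity columns chose the brightest probe and fed an alternative normalisation. The deposited marks per spot, listed as other values, removed control and outlying spots and gave the filter: a probe was tested if well above background in either channel on 50% or more of a group's arrays, in any group. The authors' value table, log10 ratios from Rosetta Resolver 6.0, served as an alternative. Of its 84 columns 80 followed their own arrays. The other 4, all of IAT with S, were left out of that alternative fit. They were replicate 6 at 84 µmol/kg and replicates 4, 5 and 6 at 280 µmol/kg, so these groups had fewer mice there.

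Group means were tested with limma 3.58.1 in R 4.3.3 (lmFit, eBayes with trend), two-sided. A fit held the 36 mice of a tissue, and the fit for the difference between tissues held 72 samples. Benjamini-Hochberg adjustment ran over all probes tested, with calls at an adjusted p under 0.05. The numbers of arrays and mice limit the precision. The groups were taken from the labels, with replicates as separate mice. The script was tested on simulated data. All members are named by their brightest probe. Single mice are drawn for the pericyte genes and for selected endothelial genes of IAT, and other genes are given by ranges or means over the mice. Members and lists were chosen with earlier results of these data known. Promoters were read from RefSeq on GRCm38.p6, and no gene annotation of mm8 was used.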

Additional observations from a re-analysis of the deposited data

Results flagged for a closer look

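In 21 of 390 groups of 6 mice 1 mouse stood apart from the other 5 by the gap to its nearest neighbour (Dixon's criterion), and chance alone marks about 5% of groups. In liver at 280 µmol/kg RSG, replicate 2 accounted for 5 of them: Flt1 at 0.01 (others 0.33 to 0.46), Eng at -0.38 (0.07 to 0.24), Emcn at -0.20 (0.31 to 0.53), Icam2 at -0.24 (0.48 to 0.69) and Lyve1 at -0.21 (0.52 to 0.87). In the same group replicate 6 had 0.30 for Cspg4 (others -0.24 to -0.07).

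Elsewhere in liver with RSG, single mice had 0.83 for Vwf at 84 µmol/kg (others 0.24 to 0.42), 0.21 for Icam2 (0.52 to 0.71) and 1.00 for Vegfb (0.52 to 0.70), both at 28 µmol/kg. With S, single mice had 0.30 for Cldn5 (0.61 to 0.77) and 0.26 for Vegfa (0.04 to 0.11) at 280 µmol/kg, -0.44 for Plvap (-0.12 to -0.03) at 84 µmol/kg and -0.12 for Stab1 (0.14 to 0.22) at 28 µmol/kg, the last in replicate 1.

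In IAT at 280 µmol/kg S, replicate 5 had -0.81 for Egfl7 (others -0.48 to -0.28) and -1.32 for Pdgfrb (-0.68 to -0.52). With RSG single mice had -0.14 for Flt1 (-0.43 to -0.34) and -0.50 for Nos3 (0.03 to 0.28) at 280 µmol/kg, -0.32 for Tie1 (-0.62 to -0.52) and -0.35 for Angpt1 (-0.71 to -0.59) at 84 µmol/kg, and -0.48 for Cdh5 (0.06 to 0.24) and -0.45 for Notch3 (-0.21 to -0.07) at 28 µmol/kg.

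The responses of IAT and liver differed, by a test of the difference itself, in 27 of 32 genes for 280 µmol/kg RSG and in 25 for 280 µmol/kg S.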

How the results depend on the processing

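In the first fit 24 counts of genes held 341 calls. Normexp with loess kept 326 of them, the deposited processed values 330, no filter on dim probes 331, the mean of all probes 319 with 1 reversed, the slide as a random block 328, centring each array 338 and the scan day as a random block, added after seeing the data, 332. The study's own thresholds, an unadjusted p under 0.001 with a fold of at least 1.3, kept 158. With the scan day as a fixed block, which 19 counts and 238 calls allowed, 145 were kept, 91 lost and 2 reversed. The reversals were Angpt1 in IAT at 84 µmol/kg S (0.0739), Vegfb between the compounds at 280 µmol/kg in liver (0.0179) and, with the mean of all probes, Vegfa in IAT at 280 µmol/kg S (0.19).

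Under the fixed day block the counts became 2 at 28 µmol/kg RSG, 4 at 28 and 2 at 84 µmol/kg S, 0 between the compounds at 84 µmol/kg and 10 between doses of RSG in IAT, and 4, 12 and 11 over the doses of S, 1 between the compounds at 280 µmol/kg and 1 between doses of S in liver. For RSG against S in IAT the random day block gave 1, 11 and 8 over the doses, the slide 3 and 0 at 84 and 280 µmol/kg, and centring 8 at 84 µmol/kg. At 280 µmol/kg normexp and the deposited processed values gave 1 and no filter 0, and leaving out single mice, also chosen after seeing the data, gave 0 to 2 there and 5 in liver. The study's thresholds gave 3 and 9 at 28 and 84 µmol/kg RSG, 1 and 3 at 28 and 84 µmol/kg S and 1, 3 and 0 between the compounds in IAT, and 5, 8 and 6 for RSG, 3, 5 and 5 for S, 0 between the compounds at 280 µmol/kg and 0 between doses of S in liver. The cause of these changes was not tested.

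The labels do not say what a replicate number shares. The deviations of same-numbered mice of different groups had a median correlation of 0.122 in IAT and 0.127 in liver. Between the tissues it was 0.168 for the same compound and dose. With the replicate number as a replicate block 340 of the 341 calls were kept and 12 gained, and the count at 280 µmol/kg RSG in IAT was 24.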

Other observations

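Genes of other vessel lists moved in liver beside the 32 described. Of 38 signals of vessel growth tested there, 17 were higher and 8 lower at 280 µmol/kg RSG, and 17 higher and 10 lower at 280 µmol/kg S, beside 21.4% higher and 29.5% lower of all probes with RSG and 27.9% and 38.0% with S. Of 33 other endothelial genes 13 were higher and 4 lower with RSG, but 8 higher and 10 lower with S. Of 19 mural and smooth muscle genes 2 were higher with either compound, and 5 and 9 were lower. Nrp1, a co-receptor of Kdr, had 0.64 and 0.89, the Notch ligand Dll4 0.32 and 0.73 and the apelin receptor Aplnr 0.21 and 0.46, whereas Angptl4 had -0.49 and -0.74. Of 15 sinusoidal genes 9 were higher and none lower with RSG, and 5 higher and 1 lower with S. The inhibitory Fc receptor Fcgr2b had 0.32 and 0.26, and the lectin Clec4g 0.17 and, without a call, 0.05. Of 13 stellate cell genes 3 were higher and 4 lower with RSG, and 3 higher and 9 lower with S. One of those that were higher, Lrat, the retinol-esterifying enzyme of stellate cells, had 0.63 and 0.62, while S1pr1 had -0.62 in both and Sox7 -0.43 and -0.85. In IAT, of 10 lymphatic genes 1 was higher and 1 lower with RSG, and 1 higher and 7 lower with S. These 10 genes were read on 9 probes, so they are not 10 separate measurements, and they include Flt4 and Lyve1 described above. Of all probes tested in IAT, 36.6% were higher and 29.8% lower with RSG, and 42.1% and 32.1% with S. Prox1, the master factor of lymphatic endothelium, had 0.15 with RSG, which did not pass, and -0.55 with S. In IAT Prox1 was well above background on 53 of 72 arrays in the treated channel and on 67 in the pool channel. Between the compounds at 280 µmol/kg limma called none of these 10 lymphatic genes, Prox1 included (adjusted p = 0.25), beside 1.54% of all probes. Of the 10, 4 had an unadjusted p under 0.05.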
